A study of Mus musculus with 6 samples.

Results

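The genes described here are 10 let-7 targets and oncofetal regulators of the mouse: Lin28a, Lin28b, Igf2bp1, Igf2bp2, Igf2bp3, Hmga1, Hmga2, Mycn, Arid3a and E2f5. They were chosen by name, as genes reported as let-7 targets or as genes of the fetal program, and all 10 were found among the 40769 genes of the deposited table. Polyadenylated RNA had been sequenced from C57BL/6 small intestinal enteroids, which are epithelial cultures of the jejunum grown in Matrigel in serum-free ENR medium. Every line carried a piggyBac transposon, an element that integrates into the genome. In PLAGL2 clone 3 and PLAGL2 clone 1 it drove constitutive expression of PLAGL2, a transcription factor with zinc fingers, at a level that the labels call high in clone 3 and low in clone 1. In the GFP line it drove green fluorescent protein, and no untransfected line was analysed here. Each of the 3 lines gave 1 library at passage 7 and 1 at passage 5, so there were 4 PLAGL2 and 2 GFP libraries. Both libraries of a line came from 1 transfected culture, and p-values between single lines measure the spread between passages, not between transfections. Those of PLAGL2 against GFP take in the difference between the clones as well, and treat the 4 libraries of both clones as independent.

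let-7 is a family of small RNAs that accumulate as cells differentiate and that silence mRNAs by pairing with their 3′ untranslated regions (UTRs). Lin28a and Lin28b are RNA-binding proteins that bind the let-7 precursor and block its maturation, and their own mRNAs are let-7 targets, so that each side of the loop holds down the other. Oncofetal regulators are genes with high levels in fetal tissue and low levels in most adult tissue that return in tumours, such as the Igf2bp RNA-binding proteins and the chromatin protein Hmga2. In the fetal mouse intestine Lin28b belongs to that program. Mature let-7 was not measured in these polyadenylated RNA libraries.

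The let-7 family shares 1 seed, the stretch of bases 2 to 8 that leads the pairing. The 9 distinct mature let-7 and miR-98 sequences of RefSeq (GRCm38.p6) all held the same seed, and 3 of them are shown to set the letters to look for in the targets, with the seed in capitals. They are encoded at chr13:48538239-48538260 (minus strand), chr10:122985698-122985719 (minus strand) and chrX:151913229-151913250 (plus strand).
mmu-let-7a-5p: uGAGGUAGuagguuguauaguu
mmu-let-7i-5p: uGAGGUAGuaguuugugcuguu
mmu-miR-98-5p: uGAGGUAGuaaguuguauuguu

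The reverse complement of the seed, CTACCTC in DNA letters, was looked for on the sense strand of the longest annotated 3′ UTR of each gene (GENCODE M21, GRCm38). It occurred 20 times, in 9 of the 10 genes. Over all 19877 genes with an annotated 3′ UTR, 8.68% held it at least once, in UTRs with a median length of 872 bases. Because these genes are known as let-7 targets, and seed matches are part of how such targets are found, this is a description of the set and not a test of it. Lin28b, Hmga2 and Igf2bp1 held 4 matches each, Lin28a and Arid3a held 2, and Hmga1, Igf2bp2, Igf2bp3 and E2f5 held 1. Among UTRs within 20% of its length, 0.155% held as many matches as that of Hmga2, 0.275% as many as that of Lin28b and 0.432% as many as that of Igf2bp1. Mycn held no match to these letters and 2 to the shorter TACCTC, which 22.21% of all UTRs held.

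The matches of Hmga2, Arid3a, E2f5 and Igf2bp2 and the first match of Lin28b are shown with 15 bases before and 4 after them, because the levels of these genes or of their transcripts are set out below. The match is in capitals. In order, they lie at chr10:120364221-120364246, chr10:120362984-120363009, chr10:120362546-120362571 and chr10:120361688-120361713 (minus strand, Hmga2), chr10:79953895-79953920 and chr10:79954722-79954747 (plus strand, Arid3a), chr3:14605729-14605754 (plus strand, E2f5), chr16:22059470-22059495 (minus strand, Igf2bp2) and chr10:45381019-45381044 (minus strand, Lin28b).
Hmga2 site 1: gccgacattcaatttCTACCTCagca
Hmga2 site 2: ccccactcctcaataCTACCTCtgaa
Hmga2 site 3: ctgatttgcaaggaaCTACCTCcaca
Hmga2 site 4: aatcaaaacacactaCTACCTCttaa
Arid3a site 1: aaggcaagtttctttCTACCTCaggt
Arid3a site 2: agaaaaaactgttttCTACCTCtggt
E2f5 site 1: acttgggactattatCTACCTCtata
Igf2bp2 site 1: acacacaaataaaagCTACCTCaggt
Lin28b site 1: acccgggcgggaagtCTACCTCatgc
An A directly after the match, which is known to favour targeting by microRNAs, followed 10 of the 20 matches.

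The deposited values are RPKM, read numbers scaled to gene length and to the reads of the library, which allows levels to be compared between genes. Libraries held 13779306 to 17319950 reads, as recovered from the smallest steps of the values. Plagl2, the gene that was to be over-expressed, had an RPKM of 37.2 and 37.2 in clone 3 at passages 7 and 5, 26.5 and 30.9 in clone 1 and 23.1 and 22.8 in GFP, in the order of the labels. Markers of intestinal epithelium summed to an RPKM of 3353 to 3926 in all 6 libraries. Those of fibroblasts and other mesenchyme summed to 0.505 to 1.08, with Col3a1, Dcn and Lum at 0, and those of blood and endothelial cells to 2.85 to 6.23, with Cdh5 and Hbb-bs among those at 0. In bulk RNA, fewer cells of a type and less RNA per cell cannot be told apart.

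The levels of the 10 genes formed 2 classes. Lin28a, Lin28b and Igf2bp1 stayed below an RPKM of 0.5 in all 6 libraries, and the other 7 genes were above it in all 6. Hmga1 was the highest, at an RPKM of 28.6 to 42.9 over the libraries, which placed its mean in the 90.0th percentile of the 16314 genes that passed the filter on low values. Igf2bp2 at 13.7 to 17.1 and E2f5 at 12.1 to 17.5 followed, with ranges that overlap. Hmga2 lay between 4.96 and 7.01, below both and above the rest. Mycn at 0.933 to 3.76, Arid3a at 0.920 to 3.29 and Igf2bp3 at 0.797 to 1.24 were the lowest of the 7, again with overlapping ranges.

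**Figure D1:**
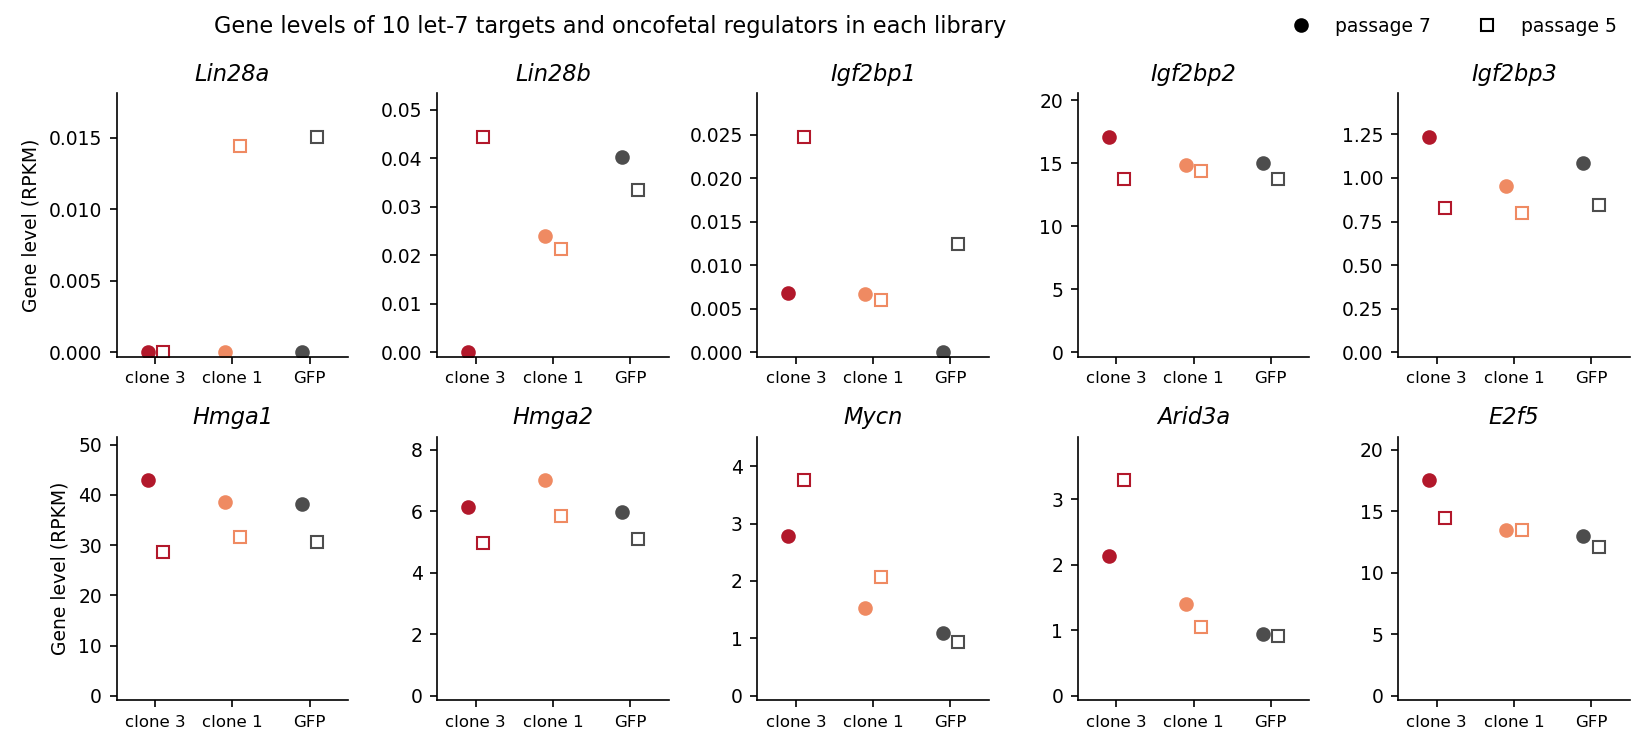
Gene level (RPKM, vertical axis, a separate scale for each gene) in PLAGL2 clone 3, PLAGL2 clone 1 and GFP, with 1 point per library, filled circles for passage 7 and open squares for passage 5. Mycn, Arid3a and E2f5 lie highest in clone 3 and lowest in GFP, while Lin28a, Lin28b and Igf2bp1 stay under 0.05 RPKM everywhere.

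The Lin28 genes, which open the pathway, were at the edge of detection in gene values. Their transcript values summed higher, as given below. Lin28a (ENSMUSG00000050966, chromosome 4, 134003330 to 134018841, mm10) had 0 and 0 reads in clone 3 at passages 7 and 5, 0 and 1 in clone 1, and 0 and 1 in GFP. Lin28b (ENSMUSG00000063804, chromosome 10, 45376620 to 45486395) had 0 and 4 reads in clone 3, 2 and 2 in clone 1, and 3 and 3 in GFP. For Lin28a the lines overlapped. For Lin28b clone 3 spanned the other lines, and clone 1 lay below GFP by 1 read. A count of 0 allows up to 3 reads, which for Lin28a is an RPKM of 0.0433 to 0.0545 and for Lin28b of 0.0321 to 0.0403, covering counting error only. In gene values no difference between lines was detectable at this depth for either gene, and neither entered the tests.

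Of the Igf2bp family, RNA-binding proteins that stabilise mRNAs such as Myc and Igf2, Igf2bp1 was at the same edge in gene values. Its transcript values summed higher, as given below. Igf2bp1 (ENSMUSG00000013415, chromosome 11, 95957163 to 96005940) had 1 and 4 reads in clone 3 at passages 7 and 5, 1 and 1 in clone 1, and 0 and 2 in GFP, where 3 reads would be an RPKM of 0.0179 to 0.0225. Igf2bp2 (ENSMUSG00000033581, chromosome 16, 22059009 to 22163299), the family member with the broadest adult expression, had an RPKM of 17.1 and 13.7 in clone 3, 14.8 and 14.4 in clone 1, and 15.0 and 13.7 in GFP. Igf2bp3 (ENSMUSG00000029814, chromosome 6, 49085223 to 49214957) had an RPKM of 1.24 and 0.829 in clone 3, 0.955 and 0.797 in clone 1, and 1.09 and 0.846 in GFP. For all 3 genes the lines overlapped. The exons of Igf2bp3 share 1529 bases with those of Malsu1 on the other strand, and since no use of strand is stated in the sources used here, reads of the 2 genes cannot be told apart there.

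Hmga1 and Hmga2 encode small proteins that bend DNA and open chromatin. Hmga2, the best known let-7 target of them, is largely confined to embryonic tissue. Hmga1 (ENSMUSG00000046711, chromosome 17, 27556497 to 27563674) had an RPKM of 42.9 and 28.6 in clone 3 at passages 7 and 5, 38.6 and 31.6 in clone 1, and 38.2 and 30.7 in GFP. Hmga2 (ENSMUSG00000056758, chromosome 10, 120361275 to 120476469) had an RPKM of 6.15 and 4.96 in clone 3, 7.01 and 5.83 in clone 1, and 5.98 and 5.10 in GFP. In every line both genes were higher at passage 7, and at each passage the lines lay close to each other.

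In gene values, the 3 transcription factors of the set had the order that the labels give to PLAGL2 itself. How many of all genes had this order was not counted. Mycn (ENSMUSG00000037169, chromosome 12, 12936093 to 12941914), a Myc family factor of embryonic progenitors, had an RPKM of 2.78 and 3.76 in clone 3 at passages 7 and 5, 1.54 and 2.07 in clone 1, and 1.10 and 0.933 in GFP. These values stand for 138 and 206 reads in clone 3, 78 and 118 in clone 1, and 50 and 51 in GFP. The reads rest on a gene length fitted to the values, the shortest that gave whole reads. The 3 lines did not overlap, with clone 3 at the top and GFP at the bottom.

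Arid3a (ENSMUSG00000019564, chromosome 10, 79927043 to 79955018), a DNA-binding protein with an AT-rich interaction domain, had an RPKM of 2.13 and 3.29 in clone 3 at passages 7 and 5, 1.40 and 1.05 in clone 1, and 0.939 and 0.920 in GFP. E2f5 (ENSMUSG00000027552, chromosome 3, 14578641 to 14606309), an E2f factor that represses cell cycle genes, had an RPKM of 17.5 and 14.5 in clone 3, 13.5 and 13.5 in clone 1, and 13.0 and 12.1 in GFP. Both genes kept the same order of lines without overlap in gene values, though for E2f5 the 2 lower lines lay close together. In their transcripts of highest mean RPKM, clone 1 overlapped GFP. Arid3a-001 had an RPKM of 0.825 and 1.31 in clone 3, 0.657 and 0.412 in clone 1, and 0.600 and 0.384 in GFP. E2f5-001 had one of 11.2 and 10.1 in clone 3, 8.95 and 9.07 in clone 1, and 9.27 and 8.32 in GFP. Arid3a-005 had one of 0.225 and 1.70 in clone 3, 1.12 and 0.766 in clone 1, and 0 and 0 in GFP. Every PLAGL2 library lay above GFP for Arid3a-005, as for 7.21% of all transcripts. In gene values, Mycn, Arid3a and E2f5 thus had every PLAGL2 library above every GFP library. These were 3 of the 7 tested genes, where 7.96% of all 16314 genes had this. Without overlap, 18.5% of all genes had clone 3 above GFP, 13.6% clone 1 above GFP and 14.5% clone 3 above clone 1.

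None of these differences between lines passed the test across all genes, which was limma-trend on log2(RPKM + 0.5) with Benjamini-Hochberg adjustment and a threshold of 0.05. Clone 3 against GFP called 0 of the 7 genes, where 0.349% of all genes were called, and so did limma-voom on recovered reads. These fits did not pair libraries by passage. With such pairing in limma-trend, 2.10% of all genes were called and again 0 of the 7. Mycn averaged 3.27 ± 0.689 RPKM in clone 3 and 1.02 ± 0.120 RPKM in GFP (SD, n = 2 each), a ratio of 3.21. Its log2 change was 1.30 (95% interval 0.75 to 1.86, limma-trend adjusted p = 0.128), and the adjusted p ranged from 0.0565 to 0.507 over the alternatives. The lowest was that of limma-trend with libraries paired by passage. Arid3a averaged 2.71 ± 0.818 RPKM in clone 3 and 0.930 ± 0.0135 RPKM in GFP (SD, n = 2 each), a log2 change of 1.14 (95% interval 0.53 to 1.76, limma-trend adjusted p = 0.197, 0.0892 to 0.639 over the alternatives). E2f5 averaged 16.0 ± 2.15 RPKM in clone 3 and 12.6 ± 0.588 RPKM in GFP (SD, n = 2 each), a log2 change of 0.33 (95% interval 0.04 to 0.63, limma-trend adjusted p = 0.457). Without adjustment these 3 of the 7 genes were under 0.05, and so were 9.04% of all genes.

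For clone 1 the same 3 genes were nearer to GFP. Clone 1 against GFP called 0 of the 7 genes, where 0.0306% of all genes were called, and voom called 0 as well. Mycn averaged 1.80 ± 0.378 RPKM in clone 1 and 1.02 ± 0.120 RPKM in GFP (SD, n = 2 each), a log2 change of 0.59 (95% interval 0.04 to 1.15, limma-trend adjusted p = 1), and it was the 1 gene of the 7 at an unadjusted p under 0.05, where 3.95% of all genes were. Arid3a had a log2 change of 0.26 (95% interval -0.35 to 0.87) and E2f5 one of 0.10 (95% interval -0.19 to 0.39).

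Clone 3 against clone 1, which tests the difference between the clones itself, called 0 of the 7 genes, where 0.0245% of all genes were called. The log2 change was 0.71 for Mycn (95% interval 0.15 to 1.26, limma-trend adjusted p = 0.755) and 0.88 for Arid3a (95% interval 0.27 to 1.49, limma-trend adjusted p = 0.597). These were the 2 genes at an unadjusted p under 0.05, where 5.13% of all genes were, and voom called 0. Over both clones, PLAGL2 against GFP called 0 of the 7 genes, where 0.00613% of all genes were called, and voom called 0. Mycn was the 1 gene at an unadjusted p under 0.05, where 5.95% of all genes were. Mycn averaged 2.54 ± 0.960 RPKM with PLAGL2 (SD, n = 4 libraries of both clones) and 1.02 ± 0.120 RPKM with GFP (SD, n = 2 libraries of 1 line). The log2 change of Mycn was 0.95 (95% interval 0.23 to 1.66, limma-trend adjusted p = 0.706). These comparisons share libraries, so their values for 1 gene are not independent of each other.

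**Figure D2:**
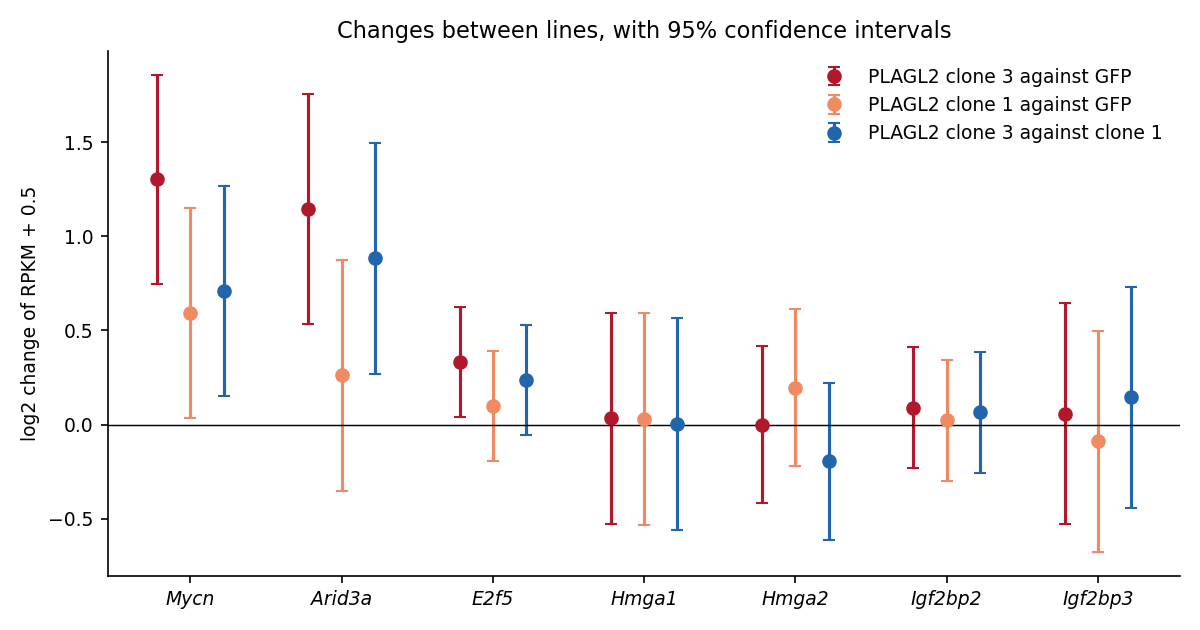
Log2 change of RPKM + 0.5 (vertical axis) for the 7 genes tested, with 95% confidence intervals from limma-trend, for clone 3 against GFP, clone 1 against GFP and clone 3 against clone 1. Mycn and Arid3a lie highest, at 1.30 and 1.14 in clone 3 against GFP, and the intervals of Hmga1, Hmga2, Igf2bp2 and Igf2bp3 all include 0.

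Hmga1, Hmga2, Igf2bp2 and Igf2bp3 showed small changes between lines, with intervals that bound their size. In clone 3 against GFP the log2 change of Hmga1 was 0.03 (95% interval -0.53 to 0.60) and that of Igf2bp3 was 0.06 (95% interval -0.53 to 0.64). Igf2bp2 had the narrowest interval of the 4, with a log2 change of 0.09 (95% interval -0.23 to 0.41). For Hmga2 the interval ran from -0.42 to 0.42. Differences of this size remain possible for each gene.

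Of 8 goblet cell markers, 3 were called lower in clone 3 against GFP, where 0.349% of all genes were called in either direction. Goblet cell markers summed to an RPKM of 1029 and 931 in clone 3 at passages 7 and 5, 1642 and 1753 in clone 1, and 2130 and 2598 in GFP. Paneth cell markers summed to 1722 and 1374 in clone 3, 2787 and 2550 in clone 1, and 2984 and 2820 in GFP, with 0 of 7 called. In clone 3 against GFP the lowest limma-trend adjusted p of these 7 was 0.0624. Without adjustment 5 of them were under 0.05, where 9.04% of all genes were. Enteroendocrine markers summed to 443 and 243 in clone 3, 260 and 184 in clone 1, and 292 and 189 in GFP, with overlapping lines and 0 of 7 called. Stem cell markers summed to 2281 and 1387 in clone 3, 2217 and 1428 in clone 1, and 1694 and 1289 in GFP. All 10 stem cell markers had a positive log2 change in clone 3 against GFP, with a median of 0.24 beside 0.01 over all genes, and 0 of 10 were called. The part of these cell types in the levels of Mycn, Arid3a and E2f5 was not tested.

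By passage, Hmga1 was the 1 gene of the 7 that limma-trend called. It averaged 39.9 ± 2.63 RPKM at passage 7 and 30.3 ± 1.56 RPKM at passage 5 (SD, n = 3 lines each), a log2 change of 0.39 (95% interval 0.20 to 0.58, limma-trend adjusted p = 0.0413), and it was higher at passage 7 in 3 of 3 lines. With 12.1% of all genes called in this comparison, 1 of 7 is near the background. The call was lost under 7 of 14 alternatives, with adjusted p from 0.0192 to 0.166, among them leaving out either GFP library or either clone 1 library.

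Hmga2 averaged 6.38 ± 0.554 RPKM at passage 7 and 5.30 ± 0.466 RPKM at passage 5 (SD, n = 3 lines each), a log2 change of 0.25 (95% interval 0.08 to 0.41, limma-trend adjusted p = 0.0715). It did pass in voom on recovered reads, at an adjusted p of 0.0321. The passage values of Igf2bp3 were 1.09 ± 0.141 RPKM at passage 7 and 0.824 ± 0.0245 RPKM at passage 5, and those of Igf2bp2 15.7 ± 1.26 RPKM at passage 7 and 13.9 ± 0.374 RPKM at passage 5 (SD, n = 3 lines each). Neither passed, at limma-trend adjusted p of 0.256 and 0.175. In all, 5 of the 7 genes (Hmga1, Hmga2, Igf2bp2, Igf2bp3 and E2f5) were higher at passage 7 in each of the 3 lines, where 39.0% of all genes were. The median log2 change of the 7 was 0.16, beside 0.09 over all genes.

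**Figure D3:**
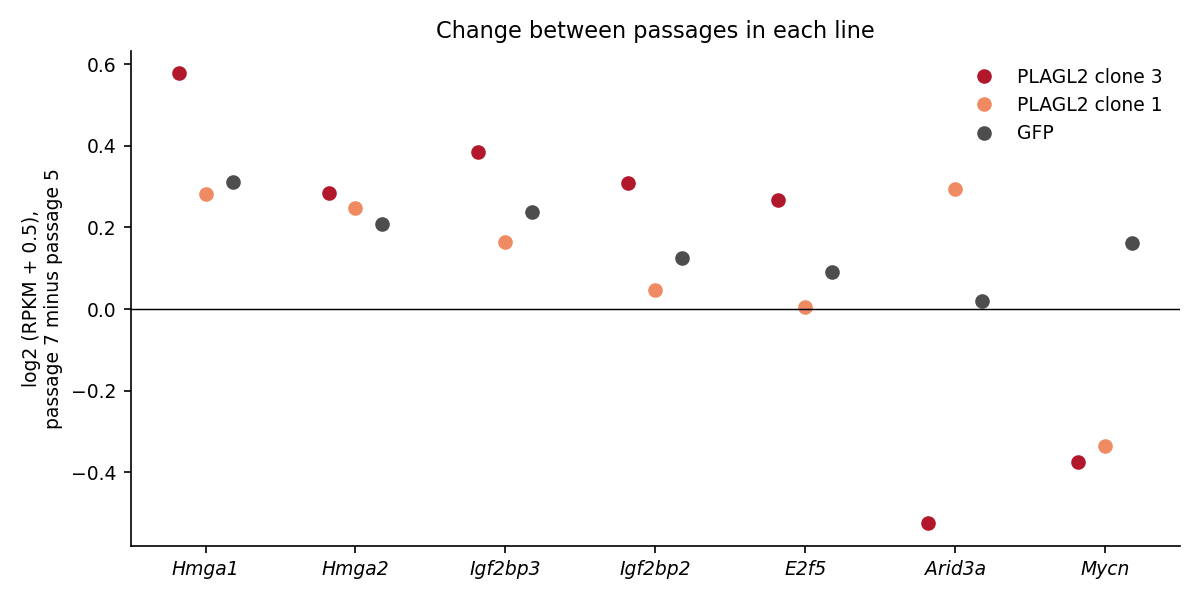
Difference of log2(RPKM + 0.5) between passage 7 and passage 5 (vertical axis) for the 7 genes tested, with 1 point for each of PLAGL2 clone 3, PLAGL2 clone 1 and GFP. Hmga1 and Hmga2 lie above 0 in all 3 lines, and Mycn lies below 0 in both clones and above 0 in GFP.

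Mycn and Arid3a did not share that pattern. The log2 difference of Mycn between passage 7 and passage 5 was -0.38 in clone 3, -0.34 in clone 1 and 0.16 in GFP. For Arid3a it was -0.52 in clone 3, 0.29 in clone 1 and 0.02 in GFP. Neither gene was called by passage, with limma-trend adjusted p of 0.447 and 0.825.

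Marker levels of several cell types differed between the passages. Enterocyte markers summed to an RPKM of 2815 to 3246 at passage 7 and 5864 to 7527 at passage 5, and 10 of 10 were called lower. Stem cell markers summed to 1694 to 2281 at passage 7 and 1289 to 1428 at passage 5, with 9 of 10 called higher. Proliferation markers summed to 478 to 498 at passage 7 and 385 to 402 at passage 5, with 8 of 10 called higher. Of all genes, 12.1% were called by passage in either direction. The part of these cell types in the passage values of Hmga1 and Hmga2 was not tested.

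At the level of transcripts, 39 transcripts of the 10 genes were listed and 25 passed the filter. None was called in any comparison of lines. For PLAGL2 against GFP 0.00447% of all 44747 transcripts were called, for clone 3 against GFP 0.00223%, for clone 1 against GFP 0.00% and for clone 3 against clone 1 0.00447%. Without adjustment, 5, 6, 5 and 2 of the 25 were under 0.05 in these comparisons, where 5.55%, 6.93%, 4.76% and 5.35% of all transcripts were. Transcripts of 1 gene share reads and are not independent. How reads were shared between transcripts is not given in the sources used here.

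Hmga2 and Igf2bp2 each had transcripts whose values differed between the lines in opposite directions. Hmga2-002 (ENSMUST00000159699) had an RPKM of 3.53 and 3.30 in clone 3 at passages 7 and 5, 1.70 and 3.16 in clone 1, and 1.16 and 1.12 in GFP. Hmga2-001 (ENSMUST00000072777) had an RPKM of 3.18 and 3.05 in clone 3, 7.18 and 4.03 in clone 1, and 7.07 and 5.20 in GFP. Thus the PLAGL2 libraries did not overlap GFP for Hmga2-002, and clone 3 did not overlap GFP, in the opposite direction, for Hmga2-001. Of all transcripts, 7.21% lay above GFP in every PLAGL2 library and 15.1% lay below GFP in both clone 3 libraries, so neither pattern is rare. In clone 3 against GFP the log2 change was 1.26 (SE 0.29, limma-trend adjusted p = 0.473) for Hmga2-002 and -0.86 (SE 0.30, limma-trend adjusted p = 0.666) for Hmga2-001. The 3′ UTRs of both hold the same 4 let-7 seed matches printed above, in 3014 and 2977 bases. Hmga2-003 (ENSMUST00000159310) had an RPKM of 5.66 and 3.83 in clone 3, 4.56 and 4.94 in clone 1, and 3.95 and 4.29 in GFP, so that clone 1 lay above GFP and clone 3 spanned both. Igf2bp2-008 had an RPKM of 5.40 and 5.06 in clone 3, 4.01 and 3.94 in clone 1, and 2.65 and 2.91 in GFP. Igf2bp2-005 had an RPKM of 5.62 and 4.81 in clone 3, 4.91 and 5.85 in clone 1, and 7.21 and 7.47 in GFP. Every PLAGL2 library lay above GFP for Igf2bp2-008 and below it for Igf2bp2-005, as did 7.21% and 6.43% of all transcripts. In clone 3 against GFP their log2 changes were 0.81 and -0.46 (SE 0.16 each, limma-trend adjusted p = 0.372 and 0.668).

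**Figure D4:**
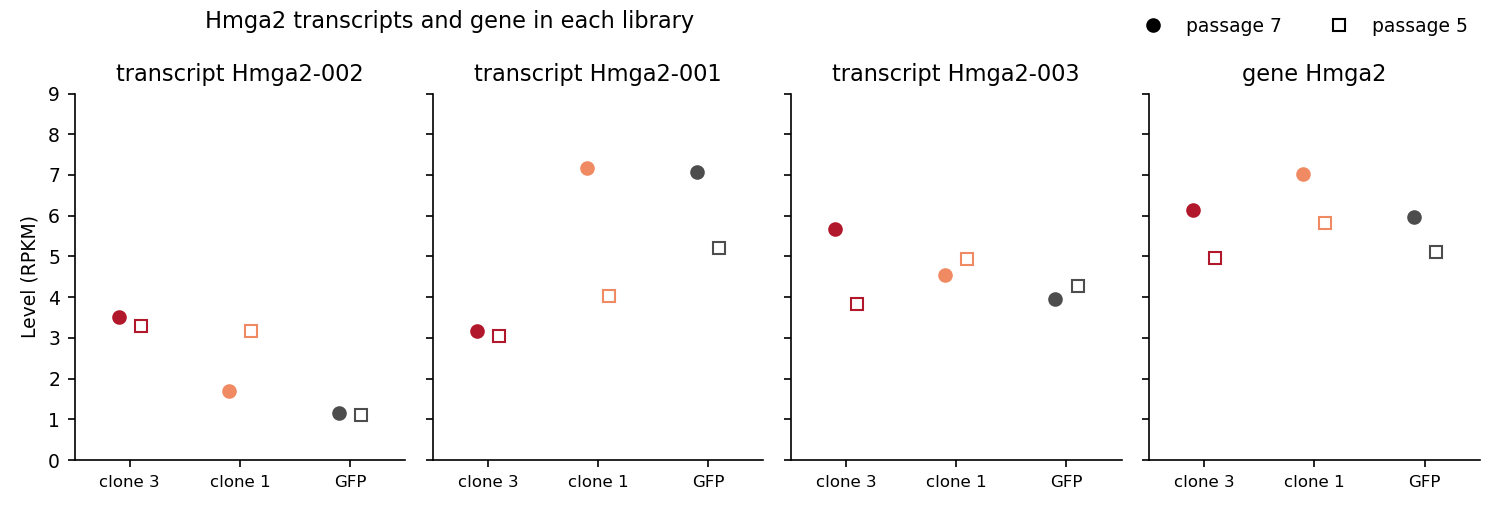
Level (RPKM, vertical axis) of 3 Hmga2 transcripts and of the gene in PLAGL2 clone 3, PLAGL2 clone 1 and GFP, with 1 point per library, filled circles for passage 7 and open squares for passage 5. Hmga2-002 is higher in all 4 PLAGL2 libraries than in GFP, Hmga2-001 is lower in clone 3 than in GFP, and the gene lies between 4.96 and 7.01 in every library.

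For Mycn, the main transcript Mycn-001 (ENSMUST00000043396) followed the gene. It had an RPKM of 1.73 and 2.57 in clone 3 at passages 7 and 5, 1.19 and 1.59 in clone 1, and 0.597 and 0.648 in GFP, with a log2 change of 1.22 in clone 3 against GFP (SE 0.28, limma-trend adjusted p = 0.453). Mycn-002 (ENSMUST00000130990) had an RPKM of 0.772 and 0.746 in clone 3, 0.157 and 0.195 in clone 1, and 0.404 and 0.188 in GFP, so that clone 3 was again highest but clone 1 was not above GFP.

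The gene and transcript tables gave different levels for several of the genes, with the widest gaps for Igf2bp1, Lin28a and Hmga1. Igf2bp1-002 (ENSMUST00000141515), which is 1108 bases long, was listed at an RPKM of 2.27 to 3.55, while the gene stood at 0 to 0.0248. Lin28a-001 (ENSMUST00000051674) was listed at 0.124 to 0.148, while the gene stood at 0 to 0.0151. For Hmga1, the transcript Hmga1-002 (ENSMUST00000114888) alone was listed at 87.7 to 129, and the gene at 28.6 to 42.9. Its 3 longer 3′ UTRs hold the let-7 seed match, while Hmga1-005 (ENSMUST00000118599, RPKM 0.726 to 6.41) and Hmga1-006 (ENSMUST00000119486, RPKM 6.58 to 16.9) end in UTRs of 355 and 534 bases that hold none. Summed over transcripts and scaled to the length of the gene, the transcript table gave 0.304 to 0.455 RPKM for Igf2bp1, 0.109 to 0.130 for Lin28a and 144 to 203 for Hmga1. The lengths of Hmga1, Mycn and E2f5 were fitted to the values, and that of E2f5, 1751 bases, is below the 1779 of E2f5-001. The sum for Igf2bp2, 9.60 to 12.2, lay wholly below the gene's 13.7 to 17.1. E2f5 at 8.45 to 12.4 and Mycn at 0.671 to 2.68 also ran lower than their genes, at 12.1 to 17.5 and 0.933 to 3.76, and Lin28b at 0.0321 to 0.0730 ran higher than its gene, at 0 to 0.0444. The reason was not tested. For Hmga2 the same sum was 5.44 to 7.17, beside the gene's 4.96 to 7.01.

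Other reported let-7 targets were compared as a list of 28 genes, of which 22 passed the filter. In clone 3 against GFP limma-trend called 0, with a median log2 change of 0.11 beside 0.01 over all genes. There 1 of 22 was at an unadjusted p under 0.05, where 9.04% of all genes were. The other comparisons of lines also called 0, with medians of 0.05 in clone 1 against GFP and 0.03 in clone 3 against clone 1. Among the 4 most abundant, the D-type cyclin Ccnd1 had an RPKM of 53.2 and 49.7 in clone 3 at passages 7 and 5, 50.0 and 39.6 in clone 1, and 43.7 and 38.6 in GFP. Its log2 change in clone 3 against GFP was 0.32 (SE 0.14, limma-trend adjusted p = 0.602). Ccnd2 had one of 0.10, the ubiquitin-conjugating enzyme Cdc34 one of -0.02 and Myc one of -0.05. By passage 3 of the 22 rose and 1 fell, where 12.1% of all genes were called, and without limma's trend the passage comparison called 0 of all genes. Myc rose by 0.66 on the log2 scale (SE 0.07, limma-trend adjusted p = 0.0186), Cdk6, a kinase that drives entry into S phase, by 0.57 and Igf1r, the receptor for Igf1, by 0.53, while Irs2, an adaptor of insulin signalling, fell by 0.43.

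The genes that make, trim or tail let-7 formed a list of which 24 were found and 22 passed. In the comparisons of lines limma-trend called 0, with 0 to 1 of 22 under 0.05 before adjustment, where 3.95% to 9.04% of all genes were. Changes in clone 3 against GFP lay between -0.33 and 0.16, with a median of -0.02. Of the 4 most abundant, the helicases Ddx5 and Ddx17, which work with Drosha, had log2 changes of -0.05 and 0.09 in clone 3 against GFP. Khsrp, which binds let-7 precursors and promotes their processing, had one of 0.05, and the export GTPase Ran one of -0.11. By passage 2 of the 22 were called, a share below the 12.1% of all genes. Khsrp rose by 0.27 (SE 0.04, limma-trend adjusted p = 0.0265) and Xpo5, which exports the precursor from the nucleus, by 0.23 (SE 0.04, limma-trend adjusted p = 0.0353). Dgcr8, the partner of Drosha, was listed at 0 in every library. The reason was not tested, and a listed 0 does not show that the gene was silent.

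Let-7 hairpin genes and their hosts were found for 15 of 20 names, and 9 passed. Mirlet7b, the highest hairpin, had an RPKM of 2.34 and 6.35 in clone 3 at passages 7 and 5, 6.10 and 7.47 in clone 1, and 7.68 and 4.96 in GFP, with overlapping lines. Such values come from reads of longer polyadenylated RNA over the hairpin and do not give the level of mature let-7. A hairpin is short, so each of these RPKM values rests on few reads. The hosts Huwe1 and Wdr82 had log2 changes of -0.01 and -0.07 in clone 3 against GFP. Rrm2, a subunit of ribonucleotide reductase that was on the same list, had one of -0.30 and rose by 0.31 by passage (SE 0.06, limma-trend adjusted p = 0.0467). Spaca6 and Mir99ahg, of the same list, did not pass the filter and were not tested. Spaca6 had an RPKM of 1.47 and 0.435 in clone 3 at passages 7 and 5, 0.498 and 0.410 in clone 1, and 0.189 and 0.0961 in GFP. Mir99ahg had one of 0.137 and 0.0414, 0.121 and 0.0626, and 0.0215 and 0.0237. Both lay above GFP in every PLAGL2 library, as did 7.96% of the genes that passed the filter. No gene of the list was called between lines by limma-trend, with 0 to 1 of 9 under 0.05 before adjustment, where 3.95% to 9.04% of all genes were. Changes in clone 3 against GFP ran from -0.60 to 1.47. The highest was that of Mirlet7g, named after its values were seen, with an RPKM of 1.51 and 2.05 in clone 3 at passages 7 and 5, 0.736 and 3.28 in clone 1, and 0.825 and 0 in GFP. Clone 3 lay above GFP, of which 1 library is listed at 0, and clone 1 overlapped GFP. At so few reads, counting error alone is wide beside these differences. Its limma-trend adjusted p was 0.639 in clone 3 against GFP and 0.769 in PLAGL2 against GFP.

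Family paralogs of the 10 genes, such as E2f4, Myc and Mycl, gave 0 calls between lines among the 15 tested, with changes between -0.22 and 0.22 in clone 3 against GFP and 0 under 0.05 before adjustment. Tfdp1, E2f4 and Max, which with Myc were the most abundant, had log2 changes of -0.05, -0.11 and -0.07. By passage Myc, Mycl, E2f8 and E2f4 rose, by 0.66, 0.39, 0.31 and 0.22, so 4 of 15 were called where 12.1% of all genes were. Among 11 tested genes of the Igf axis and of mRNAs that Igf2bp proteins bind, H19 was called in clone 3 against GFP, where 0.349% of all genes were. H19, an imprinted noncoding RNA of fetal tissue that is bound by Igf2bp proteins, had an RPKM of 11.5 and 6.53 in clone 3 at passages 7 and 5, 0.929 and 0.876 in clone 1, and 0 and 0.0254 in GFP (limma-trend adjusted p = 0.0144). The most abundant of that list, Actb, Myc, Cdc20 and Igf2r, had log2 changes of -0.04, -0.05, -0.06 and 0.10. By passage 5 of the 11 rose, namely Igf1r, Kif20a, Myc, Cdc20 and Cd44, by 0.25 to 0.66, where 12.1% of all genes were called. Igf2, which shares an imprinted domain with H19 and was chosen after its values were seen, had an RPKM of 1.02 and 0.965 in clone 3, 0.238 and 0.242 in clone 1, and 0.241 and 0.126 in GFP, and did not pass (adjusted p = 0.175).

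**Figure D5:**
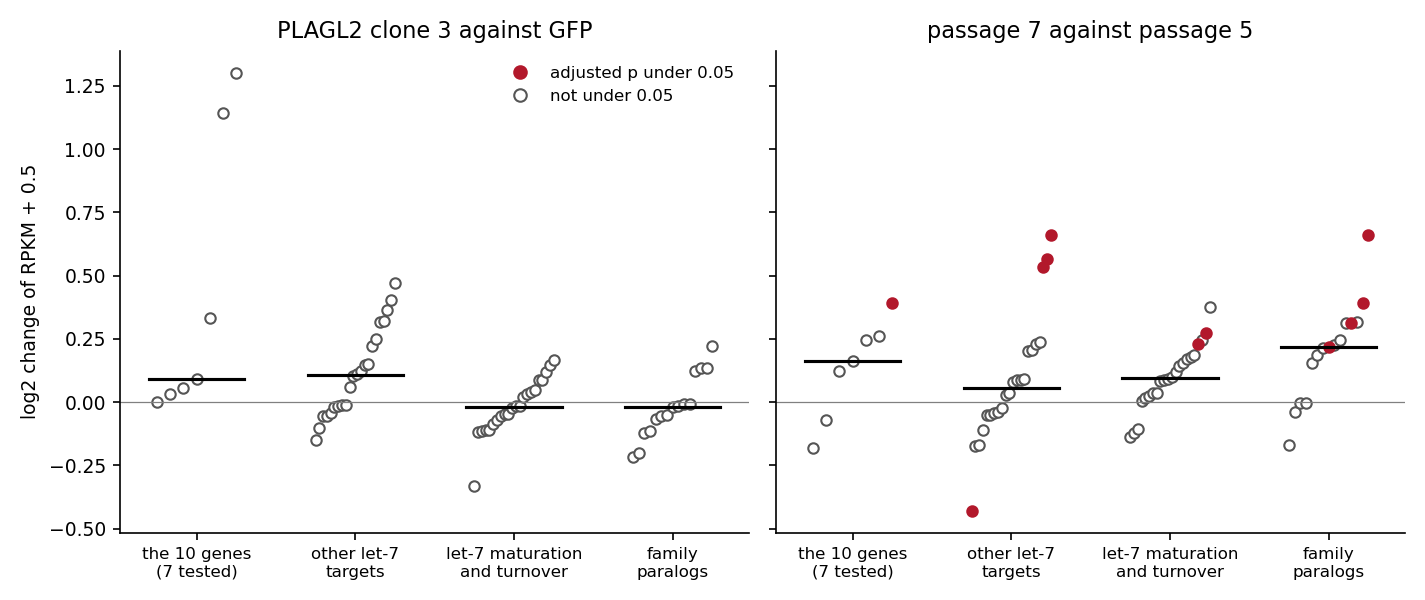
Log2 change of RPKM + 0.5 (vertical axis) of each tested gene in 4 lists, for PLAGL2 clone 3 against GFP (left) and passage 7 against passage 5 (right), with the list's median as a bar and filled points for adjusted p under 0.05. In the left panel no gene is called and the 2 highest points are Mycn and Arid3a, and in the right panel Hmga1 is the called gene of the 10.

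The genes most like each of the set were taken by Pearson's r of log2(RPKM + 0.5) over the 6 libraries, which share lines and passages, among genes with a mean RPKM of at least 1. These are descriptions with no test. Mycn was most like Setbp1 (r = 0.996), Flrt1 (r = 0.992) and Cdk16 (r = 0.992). Setbp1 had an RPKM of 2.38 and 2.97 in clone 3 at passages 7 and 5, 1.27 and 1.67 in clone 1, and 0.809 and 0.635 in GFP, while Cdk16 ran only between 41.8 and 44.9. Arid3a was most like Zan (r = 0.999), Vps13d (r = 0.995) and Matn2 (r = 0.987), and Zan had an RPKM of 11.4 and 15.4 in clone 3, 8.94 and 7.40 in clone 1, and 7.31 and 6.98 in GFP. E2f5 was most like Vamp1 (r = 0.993), Steap2 (r = 0.992) and 4930412M03Rik (r = 0.992). Hmga1 was most like Arglu1 (r = 0.998), Scnm1 (r = 0.996) and Clk2 (r = 0.995), genes whose values, like its own, were higher at passage 7 in every line. The ranges of Hmga2, Igf2bp2 and Igf2bp3 were under 0.5 on the log2 scale, and no likeness was computed for them.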

How the data were processed

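The authors deposited RPKM values per gene and per transcript, 1 value per library. Per the submitters' processing notes, edgeR, featureCounts, Subread and STAR were used with mm10, in roles and versions that the sources used here do not give. Repeated entries of a gene were dropped. Genes that reached an RPKM of 0.5 in 2 or more libraries entered limma-trend on log2(RPKM + 0.5) (limma 3.58.1, R 4.3.3), two-sided, with Benjamini-Hochberg adjustment over all genes. This scale compresses changes at low RPKM. PLAGL2 against GFP was a fit of 2 groups (4 residual degrees of freedom), lines a fit of 3 (3 residual), and passage a further term (2 residual). Dividing values by 1 read's worth gave whole reads within 0.02 for 58.7% of nonzero genes with the annotated length and 41.3% with a fitted length. limma-voom on these reads was added after seeing the data. Self-tests on simulated data were run. Library letters mark passages 7 and 5 of each line, per the labels, and deviations of same-passage libraries from line means correlated (r = 0.322, 0.277 and 0.278 across genes). All 10 genes are named. From other lists, genes called between lines and the 4 of highest mean RPKM are named. Chosen after their values were seen were genes called by passage, Dgcr8, Igf2, Mir99ahg, Mirlet7g and Spaca6. The genes and lists were chosen with earlier results of these data known. The UTR annotation was GENCODE M21.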

Additional observations from a re-analysis of the deposited data

Results flagged for a closer look

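Mycn was flagged because its difference between passages had opposite signs in the PLAGL2 lines and in GFP. The log2 difference between passage 7 and passage 5 was -0.375 in clone 3, -0.336 in clone 1 and 0.161 in GFP. The difference between the lines in this respect was not tested. In reads, at the fitted gene length, passage 7 and passage 5 had 138 and 206 in clone 3, 78 and 118 in clone 1, and 50 and 51 in GFP. By Dixon's Q over the 4 PLAGL2 libraries (critical value 0.829), no library stood apart for any of the 7 tested genes. These 4 values mix both clones, whose levels can differ, so the test can miss a library that stands apart.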

How the results depend on the processing

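In comparisons of lines, none of the 7 genes passed under any alternative run. Mycn, Arid3a and E2f5 kept their direction between lines under all of them. With the replicate block, which pairs libraries by passage, the adjusted p of Mycn in clone 3 against GFP was 0.0565 and that of Arid3a 0.107; the block changed no call of the 7 genes or their transcripts. It gave 2, 342, 12 and 47 called genes for PLAGL2 against GFP, clone 3 against GFP, clone 1 against GFP and clone 3 against clone 1, where there were 1, 57, 5 and 4 without it. Counts for PLAGL2 against GFP were 0 with a pseudocount of 0.1, 17 with no filter, 14 with no trend, 23 with the mean of the clones in the fit of 3 lines and 8 in voom. Clone 3 against GFP gave 139 in voom. Clone 1 against GFP gave 3 with a pseudocount of 0.1, 22 with no filter, 17 with no trend and 10 in voom. Clone 3 against clone 1 gave 23 with no filter, 8 with a filter of RPKM 1, 15 with quantile normalization, 36 with no trend and 25 in voom. Passage gave 1975 genes, 629 with no filter, 0 with no trend and 3196 in voom. Leaving out 1 library at a time gave 0 to 3 genes for PLAGL2 against GFP, 2 to 11 for clone 3 against GFP, 0 to 0 for clone 1 against GFP, 0 to 2 for clone 3 against clone 1 and 0 to 762 for passage. Splits of higher and lower genes were 1111 and 864 for passage and 695 and 961 with upper quartile scaling, and 1 and 3 for clone 3 against clone 1 and 7 and 8 with quantile normalization. Of the 7 genes, passage called 0 with no filter, with upper quartile scaling and with no trend, 2 in voom, and 0 to 1 without 1 library. Small changes turned sign. In clone 3 against GFP, Hmga2 was at -7.4e-05 with a pseudocount of 0.1 and -0.0443 with quantile normalization, and Igf2bp3 at -0.0414 with quantile normalization. Without 1 library, log2 changes in PLAGL2 against GFP ran from -0.12 to 0.19 for Hmga1, -0.0072 to 0.20 for Hmga2, -0.0062 to 0.12 for Igf2bp2 and -0.13 to 0.10 for Igf2bp3. In clone 3 against GFP they ran from -0.26 to 0.32 for Hmga1, -0.14 to 0.14 for Hmga2, -0.0646 to 0.24 for Igf2bp2 and -0.14 to 0.25 for Igf2bp3. In clone 1 against GFP they ran from -0.13 to 0.18 for Hmga1, -0.0394 to 0.0865 for Igf2bp2 and -0.21 to 0.0298 for Igf2bp3. In clone 3 against clone 1 they ran from -0.28 to 0.29 for Hmga1, -0.0881 to 0.22 for Igf2bp2 and -0.0480 to 0.34 for Igf2bp3. For passage, Arid3a ran from -0.25 to 0.16 and Hmga1 from 0.30 to 0.44. The cause was not tested. With 2 libraries per line, depth limits the gene values of Lin28a, Lin28b and Igf2bp1 most. Transcript values of these genes summed higher, for a reason that was not tested.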
